A study of Mus musculus with 9 samples.

Results

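The enzymes that break down phenylalanine and tyrosine were followed in the mouse yolk sac at embryonic day 9.5 with and without Rnh1, the gene of the cytosolic ribonuclease inhibitor. The 7 genes were Hgd, Gstz1, Fah, Tat, Hpd, Qdpr and Pcbd1, of 19933 genes that could be read from a probe set naming no other gene. They were taken because Hgd was lower in KO yolk sacs, so for Hgd the KO values are a description and carry no test. Each of the 7 had 1 such probe set, which was 10435626 for Hgd, 10397507 for Gstz1, 10565315 for Fah, 10575349 for Tat, 10533612 for Hpd, 10529895 for Qdpr and 10363455 for Pcbd1. In all, 5 lay above the filter for dim genes on all 9 arrays. To pass, a gene had to exceed the 40th percentile of an array's signals on at least 3 arrays, which 13207 genes did.

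The 9 untreated samples were 3 homozygous knockout (KO, Rnh1-/-), 3 heterozygous (HET, Rnh1+/-) and 3 wild-type (WT, Rnh1+/+) yolk sacs, all of mixed SV 129/C57BL/6 background. Each sample had 1 Affymetrix gene array, whose values are log2 signals after RMA, so that a difference of 1 is a change by a factor of 2. The labels state neither which part of Rnh1 was deleted and in which cells, nor whether samples were pooled or came from separate embryos, so p-values reflect only how far these samples vary, and that variation may be technical. Rnh1 itself had log2 signals of 6.28, 6.78 and 6.87 in KO, 9.75, 9.75 and 9.77 in HET and 10.39, 10.42 and 10.32 in WT.

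Phenylalanine is turned into tyrosine by a hydroxylase that uses up the cofactor tetrahydrobiopterin, and Pcbd1 and Qdpr encode the pair of enzymes that restore the cofactor. Tyrosine then loses its amino group to Tat, Hpd makes homogentisate from the product, Hgd opens the aromatic ring, Gstz1 isomerises the open chain and Fah splits it into fumarate and acetoacetate. In the adult the pathway is best known from liver and kidney, and the visceral endoderm, the yolk sac layer that takes up nutrients, uses many genes of the liver programme. In people, loss of HGD causes alkaptonuria and loss of FAH a severe tyrosinaemia.

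In KO yolk sacs the enzymes from ring opening onward were lower, in the order Hgd, Fah, Gstz1 by size of the difference, the cofactor reductase Qdpr was lower to a smaller extent, and HET yolk sacs overlapped with WT for every member. Arrays of 1 genotype correlated at r from 0.992 to 0.998 across probe sets, and WT 2 and KO 1 stood apart from the others of their genotype on principal component 2, which held 18.7% of the variance. On that component HET 3 also lay apart, at 12.7 beside 1.96 for HET 1 and 0.08 for HET 2. The Y-linked transcript Eif2s3y ranged from 4.41 to 7.62 in KO, from 7.87 to 8.68 in HET and from 4.34 to 8.81 in WT, and Xist from 11.05 to 11.67 in KO, from 5.15 to 10.56 in HET and from 5.69 to 11.00 in WT, so the arrays differed in sex-linked transcripts. Both were high on KO 1 (Xist 11.05, Eif2s3y 7.62), KO 2 (11.06, 7.27), HET 2 (10.56, 7.87) and WT 2 (10.65, 8.15). Xist was high on every KO array, on WT 2 and WT 3, and on HET 2 alone among the HET arrays. The source of these signals was not tested. Limma with the Eif2s3y value as a covariate gave Fah at -0.90 and Gstz1 at -0.55 in KO against HET, both past the test (adjusted p = 0.00489 and 0.00974). Every KO array lay below every HET array for Eif2s3y and above every HET array for Xist. Genotype and these transcripts were thus confounded in KO against HET, and the covariate fit cannot fully separate them.

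Hgd, the dioxygenase that opens the ring of homogentisate, had log2 signals of 7.35, 7.90 and 7.50 in KO, 9.99, 9.53 and 9.44 in HET and 9.35, 9.76 and 9.28 in WT. The highest KO array lay more than 1 log2 unit below the lowest array of either other genotype, while HET and WT arrays overlapped. The mean was 7.59 ± 0.28 in KO, 9.66 ± 0.29 in HET and 9.46 ± 0.26 in WT (log2 signal, SD, n = 3 each). The difference was -1.88 ± 0.19 for KO against WT and -2.07 ± 0.19 for KO against HET (log2, limma SE), so KO yolk sacs held 27.2% of the WT signal and 23.8% of the HET signal. Among the 13207 genes tested, 2 had a larger fall than Hgd in KO against WT and 1 had a larger fall in KO against HET, as follows from the choice of Hgd. Without WT 2 and KO 1 the differences were -1.61 and -1.95.

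**Figure D1:**
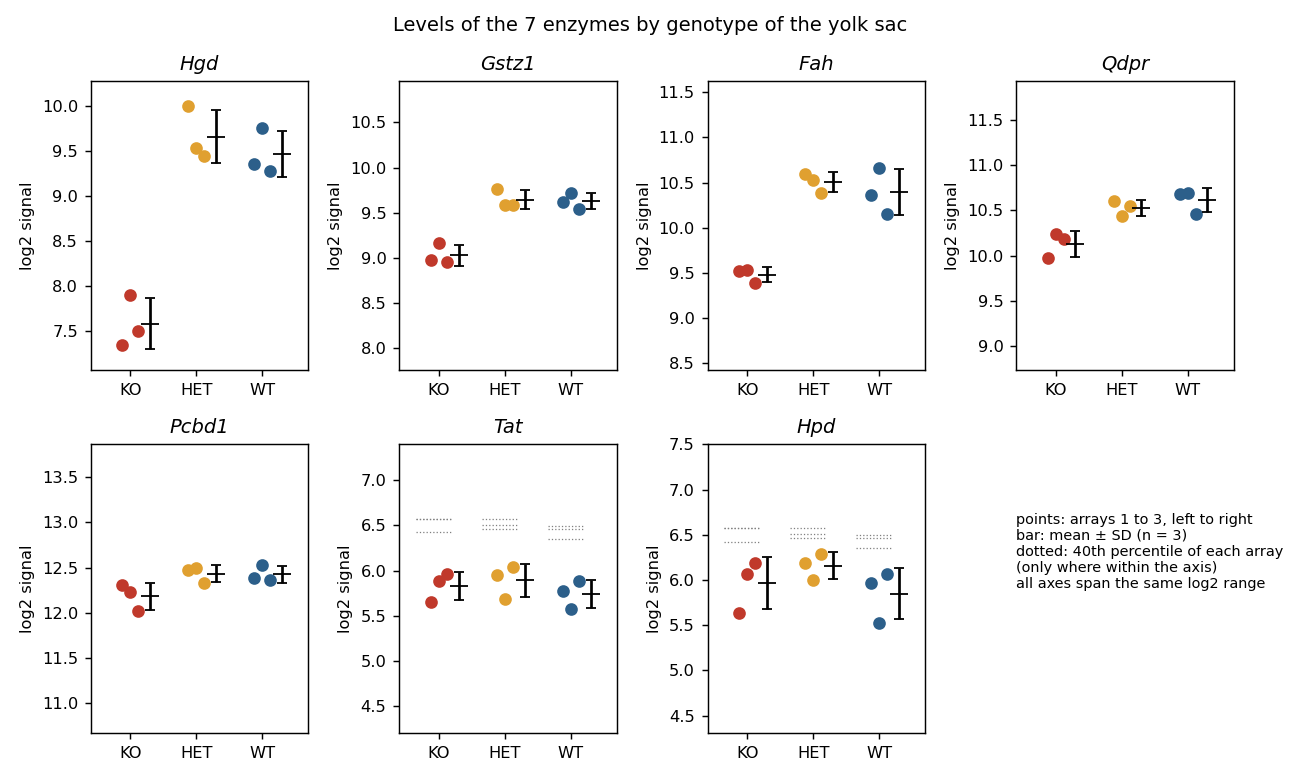
Log2 signal of each of the 7 enzyme genes (vertical axis, the same log2 span in each panel) on the KO, HET and WT arrays, with the mean and SD (n = 3) beside the points and the 40th percentile of each array dotted where it falls within the axis. The KO points of Hgd, Gstz1, Fah, Qdpr and Pcbd1 lie below all HET and WT points, and those of Tat and Hpd lie among the others and below the dotted lines.

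Fah, whose product carries out the last step and yields fumarate and acetoacetate, had log2 signals of 9.52, 9.53 and 9.39 in KO, 10.60, 10.53 and 10.39 in HET and 10.36, 10.66 and 10.15 in WT. The KO arrays lay close together and below all 6 others, and WT arrays were more spread than HET arrays. Means were 9.48 ± 0.08 in KO, 10.51 ± 0.11 in HET and 10.39 ± 0.25 in WT (SD, n = 3 each). Fah fell to 49.1% of the HET signal in KO (log2 -1.03, SE 0.12, 95% interval -1.30 to -0.76, limma adjusted p = 0.00119). Against WT, whose arrays entered the contrast by which Hgd was picked, the difference was -0.91 ± 0.12 (log2, SE).

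Gstz1, also known as maleylacetoacetate isomerase, works between Hgd and Fah. Its log2 signals were 8.98, 9.16 and 8.95 in KO, 9.76, 9.59 and 9.58 in HET and 9.62, 9.72 and 9.54 in WT. HET and WT arrays covered nearly the same range, and the KO arrays lay below it. Means were 9.03 ± 0.11 in KO, 9.64 ± 0.10 in HET and 9.63 ± 0.09 in WT (SD, n = 3 each). Gstz1 fell to 65.3% of the HET signal in KO (log2 -0.61, SE 0.08, 95% interval -0.80 to -0.43, limma adjusted p = 0.00179), and its difference from WT was -0.60 ± 0.08.

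The 3 genes act in consecutive steps and lie on different chromosomes. Their upstream sequences are shown because these 3 had the larger differences between KO and HET among the 5 members tested. The sequences are the 250 bases before each annotated start, from RefSeq (GRCm38.p6), written 5′ to 3′ along the gene, and Gstz1 has 2 annotated starts. Capitals mark matches on either strand to the CCAAT box (CCAAT) or to the C/EBP motif TTNNGCAA.
Hgd, chr16:37579903-37580152, plus strand: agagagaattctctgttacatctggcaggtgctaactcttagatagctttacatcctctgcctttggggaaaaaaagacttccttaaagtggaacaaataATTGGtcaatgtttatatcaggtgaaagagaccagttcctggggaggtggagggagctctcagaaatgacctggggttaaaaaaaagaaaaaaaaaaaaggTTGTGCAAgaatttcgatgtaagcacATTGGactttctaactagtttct
Gstz1, one start, chr12:87146915-87147164, plus strand: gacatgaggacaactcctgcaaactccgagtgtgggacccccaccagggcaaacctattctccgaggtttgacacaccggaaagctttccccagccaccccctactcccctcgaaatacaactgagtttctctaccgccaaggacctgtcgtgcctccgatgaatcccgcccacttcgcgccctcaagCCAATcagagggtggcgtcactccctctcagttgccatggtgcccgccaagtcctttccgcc
Gstz1, other start, chr12:87157353-87157602, plus strand: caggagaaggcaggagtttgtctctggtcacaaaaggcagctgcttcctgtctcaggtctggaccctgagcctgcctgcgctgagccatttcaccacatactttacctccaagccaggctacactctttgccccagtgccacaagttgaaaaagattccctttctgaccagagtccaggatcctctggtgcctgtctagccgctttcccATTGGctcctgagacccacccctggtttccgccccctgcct
Fah, chr7:84605943-84606192, minus strand: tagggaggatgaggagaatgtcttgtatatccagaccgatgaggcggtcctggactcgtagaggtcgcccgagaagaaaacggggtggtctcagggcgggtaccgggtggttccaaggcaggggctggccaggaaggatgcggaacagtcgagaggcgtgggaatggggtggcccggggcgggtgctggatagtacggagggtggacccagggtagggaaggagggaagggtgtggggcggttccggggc
Hgd held a C/EBP match 49 to 42 bases before its start and CCAAT box matches 150 to 146 and 23 to 19 bases before it, both Gstz1 windows held a CCAAT box match, and the Fah window held neither. The core of the site of HNF1, the liver-type factor that the Pcbd1 product binds, was searched as GTTAAT on both strands and matched the Pcbd1 window alone among the 8 windows of the 7 members. In all 32851 windows of this length, 33.8% held CCAAT, 9.56% held TTNNGCAA and 6.43% held GTTAAT. No match in a window overlapped another, and a match describes letters only.

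The genes of the 2 steps before ring opening were dim. Tat, the tyrosine aminotransferase, had log2 signals of 5.65, 5.88 and 5.96 in KO, 5.95, 5.69 and 6.04 in HET and 5.77, 5.57 and 5.88 in WT. Hpd, which makes homogentisate, had 5.64, 6.06 and 6.19 in KO, 6.19, 6.00 and 6.29 in HET and 5.97, 5.52 and 6.06 in WT. On each of the 9 arrays both lay below the 40th percentile, which ranged from 6.35 to 6.57, so they were not tested and the genotypes overlapped. Hpdl, a paralog of Hpd, was above the filter, at a difference of 0.35 ± 0.15 for KO against WT that did not pass (limma adjusted p = 0.119).

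Qdpr encodes the dihydropteridine reductase that completes the recycling of tetrahydrobiopterin. Its log2 signals were 9.97, 10.24 and 10.18 in KO, 10.61, 10.44 and 10.55 in HET and 10.68, 10.69 and 10.46 in WT. The KO arrays lay below all others, and HET and WT overlapped. Qdpr fell to 75.7% of the HET signal in KO (log2 -0.40, SE 0.09, 95% interval -0.61 to -0.19, limma adjusted p = 0.0171). The call was lost without HET 1 (-0.36, adjusted p = 0.0678) and with Eif2s3y as a covariate (-0.35, adjusted p = 0.0662). Against WT the difference was -0.48 ± 0.09.

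Pcbd1 encodes the dehydratase that precedes Qdpr in the recycling and also serves as the dimerization cofactor of HNF1. Its log2 signals were 12.30, 12.23 and 12.02 in KO, 12.47, 12.50 and 12.33 in HET and 12.38, 12.53 and 12.36 in WT. The KO arrays lay below the others, though KO 1 lay close to the lowest HET array. The difference from HET was -0.25 ± 0.09 (95% interval -0.45 to -0.05) and did not pass (limma adjusted p = 0.0736), and that from WT was -0.24 ± 0.09. Against HET it passed without KO 1 (-0.31, adjusted p = 0.04), without both WT 2 and KO 1 (-0.31, adjusted p = 0.0329), with a trended and robust prior (adjusted p = 0.038) and with array weights (adjusted p = 0.0181). Against WT it also passed without KO 1, with that prior and with array weights. Its paralog Pcbd2 stood at 0.05 ± 0.07 against HET (adjusted p = 0.661).

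Leaving Hgd aside, 3 of the 4 other members tested in KO against HET were lower and 0 higher, where 21.8% of all genes passed, 13.6% as lower and 8.17% as higher. The KO and HET arrays did not overlap for 4 of 4, against 21.4% of all genes with every KO array below every HET array. The median difference of the 4 was -0.51, beside -0.01 over all genes tested. For KO against WT 3 of the 4 passed as lower, where 23.5% of all genes passed, 15.2% as lower and 8.27% as higher, and the groups did not overlap for 4 of 4, beside 24.7% of all genes. These 2 comparisons share the KO arrays, and nothing is read from the KO against WT counts because that contrast led to the choice. The choice was made with the KO arrays in view, so KO against HET is not free of it either.

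**Figure D2:**
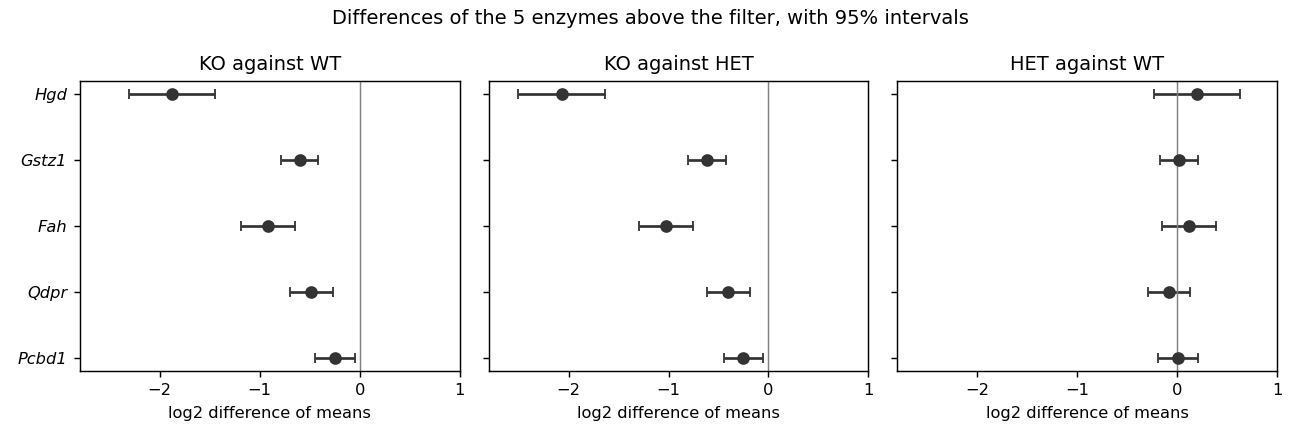
Log2 difference of genotype means (horizontal axis) with the 95% limma interval for the 5 members above the filter in KO against WT, KO against HET and HET against WT. In both panels with KO the members run from Hgd, farthest below 0, to Pcbd1, nearest to it, and in HET against WT all 5 intervals include 0.

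With 1 copy of Rnh1 lost, 0 of the 5 members tested passed. Hgd differed by 0.19 ± 0.19 between HET and WT (95% interval -0.24 to 0.62, limma adjusted p = 0.939), with HET at 114% of the WT signal. Fah stood at 0.11 (interval -0.16 to 0.38), Gstz1 at 0.02 (-0.17 to 0.20), Pcbd1 at 0.01 (-0.19 to 0.21) and Qdpr at -0.08 (-0.29 to 0.13), and for all 5 the HET and WT arrays overlapped, where 5.98% of all genes had every HET array below every WT array and 4.25% above. Limma called 0 of 13207 genes in HET against WT (0% of genes), with 327 (2.48%) at an unadjusted p under 0.05. Rnh1 itself was not called, at a difference of -0.62 ± 0.13 (limma adjusted p = 0.939), although its HET and WT arrays did not overlap. The absence of calls in this comparison therefore does not show that no gene differed. Among the 5 the widest interval, that of Hgd, still allows a fall of 0.24 or a rise of 0.62.

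Some of the visceral endoderm markers were lower in KO as well. In KO against WT 9 of 24 tested markers were lower, 1 was higher and 14 did not pass, with a median difference of -0.17. Of all genes tested, 15.2% passed as lower and 8.27% as higher. The marker that was higher was Ihh (0.33 ± 0.10, limma adjusted p = 0.0385). Apoa1 (-0.08 ± 0.06) and Gata4 (-0.07 ± 0.10) were among the markers that did not pass. Among those lower were Afp, the fetal serum protein (-0.33 ± 0.06, limma adjusted p = 0.00814), the transferrin gene Trf (-0.51 ± 0.07, adjusted p = 0.00186) and the fibrinogen chain gene Fgg (-0.94 ± 0.14, adjusted p = 0.00281). The mean of the 24 markers lay between 11.31 and 11.53 on the KO arrays, between 11.67 and 11.80 on HET and between 11.72 and 11.77 on WT. In bulk tissue, fewer cells of a type and less RNA per cell cannot be told apart.

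The difference of the marker mean was -0.30 for both KO against WT and KO against HET, while the median marker differed by -0.17 in both. Subtracting the marker mean of each array shifts every gene alike, so it leaves the differences among the members as they were and gives each one's level relative to these markers. Relative to the markers Hgd stood at -3.86 ± 0.26 in KO, -2.08 ± 0.24 in HET and -2.28 ± 0.23 in WT (log2 difference from the marker mean, SD, n = 3). Its KO difference remained at -1.77 against HET and at -1.58 against WT. Fah was lower in KO than in HET by this measure (-0.73, limma adjusted p = 8.64e-04), and Gstz1 as well (-0.32, adjusted p = 0.00838), where the unsubtracted difference was -0.61. Qdpr stood at -0.11 (adjusted p = 0.412) and Pcbd1 at 0.05 (adjusted p = 0.609), so neither passed. Any gene that fell by less than the marker mean takes the opposite sign on this scale, as Pcbd1 did, and its -0.25 against HET was below the median marker's -0.17. Pcbd1 lay 0.74 ± 0.06 above the marker mean in KO, 0.69 ± 0.05 in HET and 0.68 ± 0.06 in WT.

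**Figure D3:**
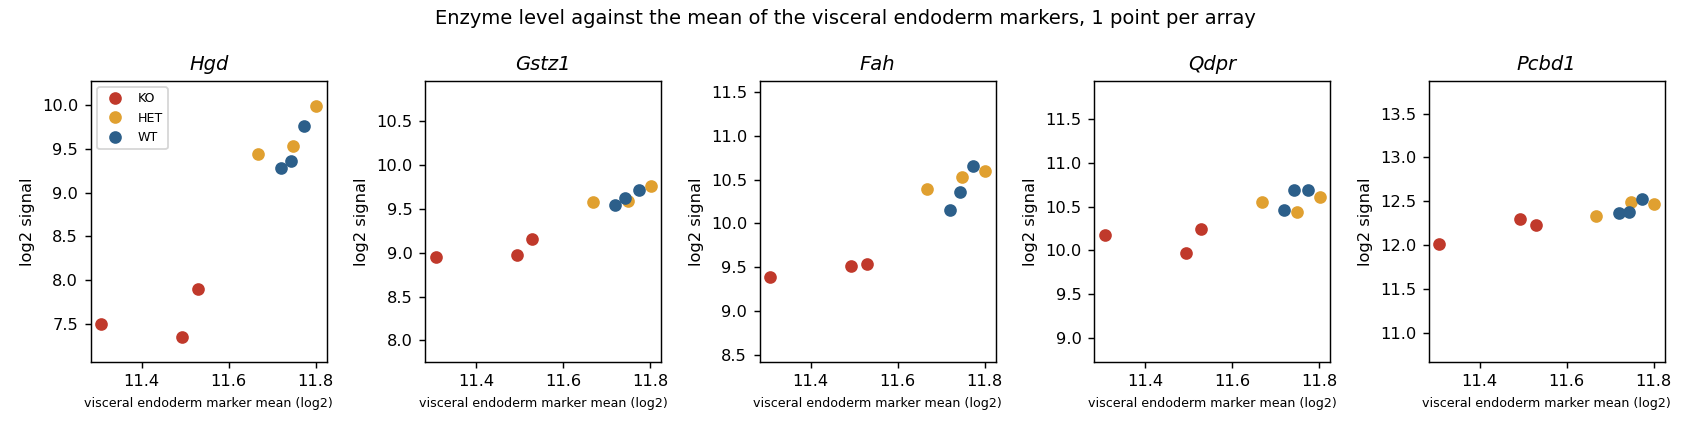
Log2 signal of each of the 5 members above the filter (vertical axis, same span in each panel) against the mean log2 signal of the 24 visceral endoderm markers (horizontal axis), 1 point per array, coloured by genotype. The 3 KO arrays lie at lower marker means, from 11.31 to 11.53, and Hgd lies farther below the HET and WT points than Pcbd1 does.

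Some markers of other cell types also differed. Of all genes tested, 15.2% passed as lower and 8.27% as higher in KO against WT. For KO against HET these shares were 13.6% and 8.17%. The lists are short, so their counts are a description beside these shares. In KO against WT 7 of 11 erythroid markers and 3 of 6 macrophage markers were lower and 0 of either were higher, with list means from 10.21 to 10.70 in KO, 10.74 to 11.07 in HET and 10.83 to 11.05 in WT for erythroid, and from 7.62 to 7.88 in KO, 8.03 to 8.24 in HET and 8.01 to 8.26 in WT for macrophage. Parietal endoderm markers had 2 of 9 lower and 0 higher, with list means from 9.88 to 10.05 in KO, 9.98 to 10.05 in HET and 10 to 11.29 in WT, where WT 1 and WT 3 were high. Extraembryonic mesoderm had 4 of 10 higher and 1 lower (10.31 to 10.36 in KO, 10.15 to 10.22 in HET, 10.10 to 10.22 in WT), endothelium 2 of 9 higher and 1 lower (9.63 to 9.68 in KO, 9.53 to 9.68 in HET, 9.56 to 9.69 in WT). Maternal decidua had 2 of 5 higher and 0 lower (9.26 to 9.64 in KO, 8.42 to 9.21 in HET, 9.0 to 9.44 in WT), with Prl3c1 and Pgr dim, and trophoblast 0 of 4 in either direction (7.95 to 8.44 in KO, 7.50 to 8.24 in HET, 8.01 to 8.75 in WT), with Tpbpa and Elf5 dim. All 6 markers of liver and embryo proper with a probe set, Alb, Cps1, Cyp3a11, Pax6, Sox2 and Otx2, were dim. In KO against HET, 9 of 24 visceral endoderm, 4 of 11 erythroid and 3 of 6 macrophage markers were lower and 0 higher, parietal endoderm had 0 of 9 and trophoblast 0 of 4 in either direction, extraembryonic mesoderm 4 of 10 higher and 1 lower, and endothelium 1 of 9 higher and 1 lower. Maternal decidua had 3 of 5 higher and 0 lower, among them Prl8a2, a decidual prolactin-family gene, at 10.50 in KO, against 7.81 in HET (log2 means, difference 2.69 ± 0.81, limma adjusted p = 0.0431). The WT mean of Prl8a2 was 9.67, and its KO difference from WT, 0.83 ± 0.81, did not pass (limma adjusted p = 0.477). Hand2, higher in both comparisons with KO, was counted in the decidua list and in the extraembryonic mesoderm list. The part of these cell types in the enzyme results was not tested.

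The genes whose profile lay nearest to Hgd had large falls of their own, as follows from a measure that does not scale the profiles. Profiles were taken relative to each gene's WT mean, and likeness was the root mean square difference over the 9 arrays (log2). The nearest were the organic cation transporter gene Slc22a2 (0.24), Slc27a2, which encodes an acyl-CoA synthetase for very long fatty acids (0.25), the connexin gene Gja5 (0.26), the lectin gene Clec2h (0.27) and the exporter gene Slc47a1 (0.29). Their own KO against WT differences were -1.70, -1.57, -1.67, -1.69 and -1.58 in that order. For Fah the nearest were Habp2, a plasma protease gene, Spp2 and the phospholipase gene Pla1a, each at 0.06, and for Gstz1 the antithrombin gene Serpinc1 (0.04), Abhd5 (0.04) and the glucose transporter gene Slc2a2 (0.06). For Qdpr they were Pccb, which encodes a subunit of propionyl-CoA carboxylase (0.05), Vat1 (0.05) and Clic5 (0.07).

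**Figure D4:**
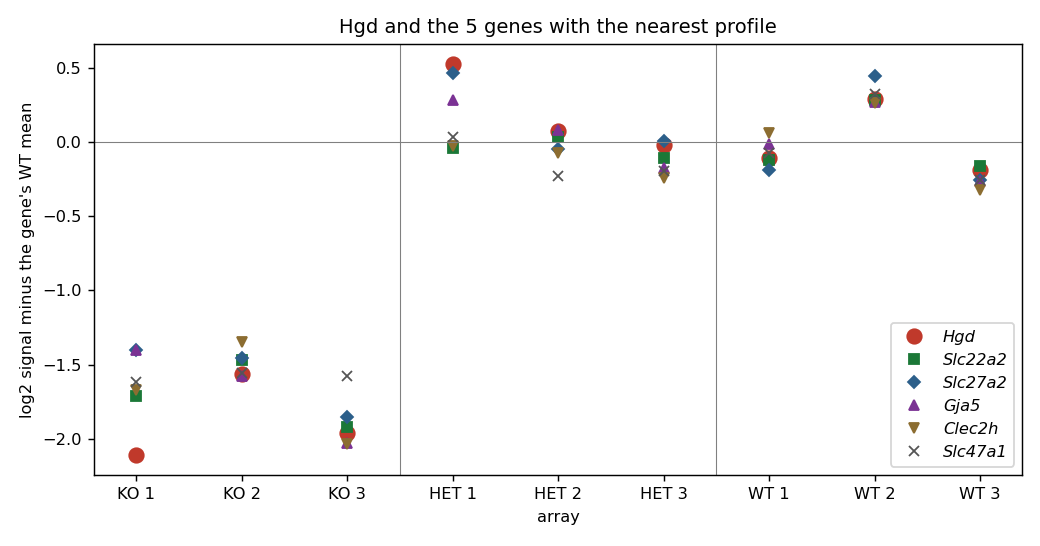
Log2 signal minus the gene's WT mean (vertical axis) on each array (horizontal axis) for Hgd and the 5 genes with the smallest root mean square difference from it. All 6 genes lie at -1.35 or lower on every KO array and between -0.32 and 0.53 on the HET and WT arrays, and Hgd is the lowest of them on KO 1.

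Among 9 tested genes of the entry and side steps, 3 were lower, 1 was higher and 5 did not pass in KO against WT (median -0.18). Got1, the cytosolic aspartate aminotransferase, which can also act on tyrosine, fell to 11.42 in KO, against 11.80 in WT (log2 means, difference -0.39 ± 0.06, limma adjusted p = 0.00261). Slc16a10, a transporter of aromatic amino acids, fell by 0.39 ± 0.09 (adjusted p = 0.0179), and it missed the threshold when WT 1 (adjusted p = 0.0634) or WT 2 (0.0542) was left out. With only the 2 genotypes fitted Slc16a10 missed it as well (limma adjusted p = 0.0521). The mitochondrial Got2 stood at -0.18 ± 0.05 (adjusted p = 0.0446) and the large neutral amino acid transporter gene Slc7a5 at 0.20 ± 0.06 (adjusted p = 0.0481). Leaving out any 1 array put Got2 above the threshold (adjusted p between 0.0559 and 0.129), and so did any except KO 1 for Slc7a5 (between 0.0575 and 0.143). Against HET, Got1 (-0.41, adjusted p = 0.00183), Slc16a10 (-0.43, adjusted p = 0.0136) and Got2 (-0.19, adjusted p = 0.0323) were lower and Slc7a5 did not pass (0.11, adjusted p = 0.276). The Got2 call against HET was lost in 7 of 9 fits that left out 1 array, all but those without WT 2 or KO 2, with adjusted p up to 0.102 without HET 1.

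Of 4 tested genes of tetrahydrobiopterin supply 0 passed in KO against WT and 1 was lower in KO against HET. This was Pts, which encodes the second enzyme of cofactor synthesis, at -0.36 ± 0.14 against WT (adjusted p = 0.0877) and -0.48 ± 0.14 against HET (adjusted p = 0.0354), and the call against HET did not hold once WT 1, HET 1, HET 2, KO 2 or KO 3 was dropped (adjusted p between 0.0577 and 0.124), with Eif2s3y as a covariate (0.117), with only 2 genotypes fitted (0.0636) or with no filter (0.051). Gch1, of the step that commits to cofactor synthesis, was dim, and Gchfr stood at 0.23 ± 0.14 against WT. Of 2 tested genes of other uses of tyrosine, Ddc, the aromatic amino acid decarboxylase, fell by 0.47 ± 0.11 against WT (adjusted p = 0.0136) and by 0.55 ± 0.11 against HET (adjusted p = 0.00733), and Th, tyrosine hydroxylase, did not pass. With both WT 2 and KO 1 left out, Ddc missed the threshold against WT (-0.39, adjusted p = 0.0508).

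Of the 3 paralogs 0 passed, with Fahd2a, a paralog of Fah, at 0.18 ± 0.09 in KO against WT (limma adjusted p = 0.152) beside the value of Hpdl above. Of 5 tested HNF4, C/EBP and FOXA factors 0 passed in any comparison. Hnf4a, a regulator of liver genes that is also in the visceral endoderm marker list, stood at -0.17 ± 0.09 in KO against WT (95% interval -0.37 to 0.03, adjusted p = 0.199) and Foxa1 at 0.26 ± 0.19 (interval -0.17 to 0.68, adjusted p = 0.338). Relative to the visceral endoderm marker mean, Got1 (-0.08, adjusted p = 0.352), Slc16a10 (-0.09, adjusted p = 0.352) and Ddc (-0.17, adjusted p = 0.126) did not pass in KO against WT. On that scale Slc7a5 stood at 0.50 (adjusted p = 0.00464). In KO against HET, Ddc passed as lower relative to the marker mean (-0.26, adjusted p = 0.0345), Slc7a5 passed as higher (0.40, adjusted p = 0.0118), and Got1 (-0.12, adjusted p = 0.192), Slc16a10 (-0.13, adjusted p = 0.19) and Pts (-0.18, adjusted p = 0.143) did not pass.

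**Figure D5:**
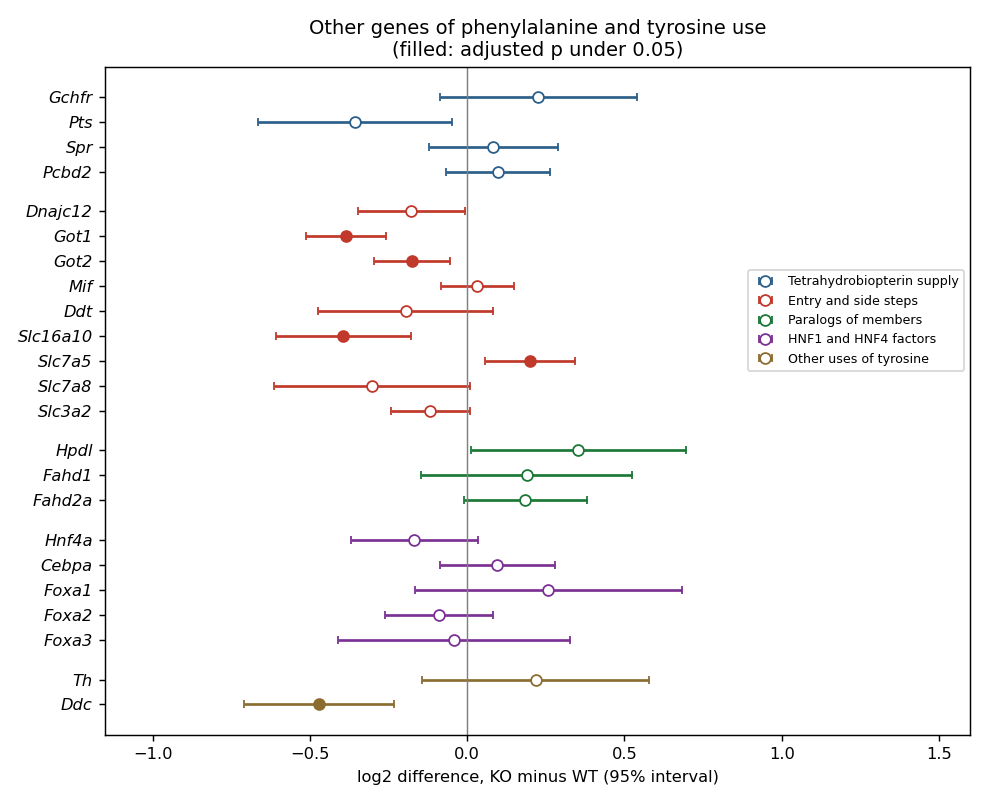
Log2 difference KO minus WT (horizontal axis) with the 95% limma interval for the other genes of phenylalanine and tyrosine use that passed the filter, grouped by role, with filled points for an adjusted p under 0.05. Filled points below 0 are Got1, Got2, Slc16a10 and Ddc, and the only filled point above 0 is Slc7a5.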

How the data were processed

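Total RNA (100 ng per sample, 5.5 µg of labelled sense cDNA, per the labels' protocols) was measured on 9 arrays. The authors deposited a log2 signal for each probe set. The submitters' processing notes name RMA and Expression Console 1.2.1.20. The log base was inferred from RMA and from the range of the values. No source used here gives a genome build for the array, so positions come only from the RefSeq promoter table.

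Of 28350 probe sets, 21780 named 1 gene, 1618 several and 4952 none, and a gene took its probe set with the highest mean. Genes above the 40th percentile of their array on at least 3 arrays were fitted with limma 3.58.1 in R 4.3.3, on all 9 arrays with genotype as the factor. P-values were adjusted by Benjamini-Hochberg over 13207 genes and passed under 0.05. The script was tested on simulated data. The number of arrays limits the precision.

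The members and gene lists were chosen with earlier results of these data known. The text names all 7 members, Rnh1, each listed pathway gene that passed, or the 2 with the smallest p where none did, and the genes nearest in profile, 5 for Hgd and 3 for each other member that passed, leaving out predicted genes and small RNAs. Th, Pcbd2, Afp, Trf, Fgg, Ihh, Apoa1, Gata4, Hand2 and Prl8a2 were named after their values were seen. Listed genes without a probe set of their own were not analysed here. Alternatives were other filters, scalings, priors, array weights, fewer arrays, the replicate number as a block, Eif2s3y as a covariate, probe set means and subtraction of the visceral endoderm mean. For 6 pathway genes these were chosen after seeing the data.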

Additional observations from a re-analysis of the deposited data

How the results depend on the processing

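Fah and Gstz1 kept their direction and their side of the threshold in KO against HET under all 21 alternatives each, with Fah from -1.09 to -0.73 and Gstz1 from -0.68 to -0.32. Hgd, chosen for its fall, ranged from -2.03 to -1.58 against WT, given as a description. With array weights, 5753 genes passed in KO against WT and 6 in HET against WT, beside 3101 and 0. With Eif2s3y as a covariate 1739 passed in KO against HET, beside 2875, and without both WT 2 and KO 1 4 passed in HET against WT. Leave-one-out gave 1672 (WT 1) to 3826 (KO 1) genes in KO against WT, with 1769 without WT 2, 1513 (HET 1) to 3139 (KO 1) in KO against HET, with 1567 without HET 2, and 0 to 5 (WT 2) in HET against WT. Arrays centred on their medians split the KO against WT calls into 577 higher and 2529 lower, beside 1092 and 2009. With the visceral endoderm mean subtracted, the same shift for every gene, Pcbd1 turned to 0.060 against WT and 0.045 against HET, and Got2 to 0.13 and 0.10. HET against WT turned sign for Pcbd1 (-0.033 with centring, -0.039 with Eif2s3y, leave-one-out -0.024 to 0.061), Gstz1 (-0.024 with centring, -0.023 with Eif2s3y, leave-one-out -0.043 to 0.062) and Fah (leave-one-out -0.0047 to 0.25), none past the test. Apart from that shift, the causes were not tested.

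The labels give the genotypes the same replicate numbers. Deviations of same-numbered arrays from their genotype means correlated positively in 5 of 9 pairs (correlations from -0.26 to 0.42). Of the 9 arrays, 4 correlated best with an array of their own number. No consistent pairing by number was seen, but 3 arrays per genotype cannot settle whether the samples were paired. With the replicate block 3131, 2853 and 0 genes passed in KO against WT, KO against HET and HET against WT, Pcbd1 passed in both comparisons with KO (adjusted p = 0.0401 and 0.038), Pts passed in KO against WT (0.0293), and Got2 (0.0651 against WT, 0.051 against HET) and Slc7a5 (0.0601) did not.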
